A study of Homo sapiens with 4 samples.

Results

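The members were 10 promoters of zinc finger genes that lie on both sides of the centromere of chromosome 10, out of 28775 promoters counted by ATAC-seq. ATAC-seq maps open chromatin by letting the Tn5 transposase cut and tag exposed DNA. From the short arm to the long arm the members were ZNF248, ZNF25, ZNF33A and ZNF37A, then ZNF33B, ZNF239, ZNF485, ZNF32, ZNF22-AS1 and ZNF22. They were chosen by position and selected on these same libraries, because the promoters of ZNF22, ZNF239, ZNF32, ZNF485 and ZNF37A had higher counts in MORC2 knockout (KO) than in wild-type (WT) cells. Their KO and WT values are therefore a description, no p-value is printed for them, and the number past the threshold of the fit across all promoters is given only beside its share among all promoters. The samples were HEK293T cells, an established human embryonic kidney line, with 2 WT libraries and 2 libraries of MORC2 KO cells. Each KO library came from a bulk pool edited with its own guide RNA, so that guide and replicate cannot be told apart in the KO group. Because pools were sequenced in bulk, a change in all cells and a larger change in some of the cells cannot be told apart either.

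MORC2 is an ATPase that works with the HUSH complex, a silencing assembly that reads the heterochromatin mark H3K9me3. C2H2 zinc finger proteins, the family of the members, form the largest group of human transcription factors, and many of them carry a KRAB domain, through which they recruit the co-repressor TRIM28 and the H3K9 methyltransferase SETDB1. Zinc finger genes lie in clusters that arose by repeated duplication, and the bodies of many of these genes are themselves covered with H3K9me3. Among the members, ZNF248, ZNF25, ZNF33A, ZNF33B, ZNF37A and ZNF485 encode KRAB zinc finger proteins. ZNF22, ZNF32 and ZNF239 encode zinc finger proteins without a KRAB domain, and ZNF22-AS1 is a noncoding transcript that leaves the ZNF22 promoter in the opposite direction.

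All 10 members passed the filter on low counts, which kept 27647 promoters. Counts summed over all rows to between 9435801 and 15152636 in a library, and mitochondrial rows took 20.6% to 35.1% of these sums. A fragment that falls in several rows enters a sum once for each, so the sums are not numbers of fragments. KO replicate 2 was the deepest library and had the lowest mitochondrial share. A member held between 104 and 872 fragments in a library. Levels below are CPM (counts scaled to a common library size) after normalisation by the trimmed mean of M-values (TMM), and fold changes are KO over WT on the log2 scale with their standard error (SE) from edgeR. The study describes promoter windows of 2 kb, so levels of different members are compared as levels per window of 1 length. At the promoter of the targeted gene, MORC2, 403 (replicate 1) and 639 (replicate 2) fragments were counted in KO cells, against 247 and 267 in WT cells. TUG1 starts beside it in the opposite direction. This count does not measure the edit, so it is no check of the labels. Among promoters listed for HEK293T, accessibility of SOX4, NEFL, LHX1, NEFM and PAX2 in WT cells lay between the 37.5th (PAX2) and the 85.0th (SOX4) percentile of all promoters. Of 7 promoters that mark other cell types, PTPRC, ALB, CD3E, PECAM1 and KRT5 lay between the 4.38th and the 28.4th percentile, whereas MYOD1 and COL1A1 lay at the 49.4th and 57.6th.

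ZNF22 had the largest difference among the members with a protein product. Its promoter measured 10.9 and 11.9 CPM in WT replicates 1 and 2 and 26.5 and 30.7 CPM in KO replicates 1 and 2. The KO level was 28.6 ± 2.94 CPM and the WT level 11.4 ± 0.669 CPM (SD, n = 2 each), a 2.54-fold difference, or 1.35 on the log2 scale (SE 0.113). The groups were well apart, and KO replicate 2 lay above KO replicate 1. The ZNF22-AS1 row held 289 (KO replicate 1), 521 (KO replicate 2), 104 (WT replicate 1) and 107 (WT replicate 2) fragments, and the ZNF22 row 289, 523, 105 and 107. These are in effect the same fragments, counted once for each gene, so the pair is a single observation. In RefSeq the 2 starts lie 120 bp apart on GRCh38.p14 and point away from each other. Only 6 of the 27647 tested promoters had a larger log2 fold change than ZNF22, and ZNF22-AS1 was 1 of them.

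Next in size stood ZNF239, ZNF37A, ZNF32 and ZNF485. ZNF239, also known as MOK2 and able to bind both DNA and RNA, measured 11.4 and 13.95 CPM in WT and 20.8 and 20.7 CPM in KO. Its log2 fold change was 0.71 (SE 0.119), and the KO libraries differed from each other far less than the WT libraries did. ZNF37A measured 15.9 and 12.8 CPM in WT and 21.1 and 22.3 CPM in KO, a log2 fold change of 0.60 (SE 0.114). ZNF32 measured 24.1 and 21.3 CPM in WT and 33.0 and 35.1 CPM in KO, a log2 fold change of 0.59 (SE 0.0924). ZNF485 measured 15.9 and 14.5 CPM in WT and 20.7 and 23.2 CPM in KO, a log2 fold change of 0.54 (SE 0.112). At each of these 4 promoters, which were chosen for their rise, the groups did not overlap, and KO was the higher. The same held at 25.2% of all tested promoters. The fold differences were 1.64, 1.51, 1.51 and 1.46 in the order named.

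The smallest differences belonged to ZNF248, ZNF33A, ZNF25 and ZNF33B, all of them KRAB zinc finger genes. ZNF248 measured 32.2 and 28.5 CPM in WT and 39.1 and 38.9 CPM in KO, with a log2 fold change of 0.36 (SE 0.0838). ZNF25 measured 41.1 and 36.3 CPM in WT and 46.2 and 45.1 CPM in KO (log2 fold change 0.23, SE 0.0766). ZNF33A and ZNF33B are paralogues that face each other across the centromere. ZNF33B measured 46.1 and 43.1 CPM in WT and 51.2 and 51.1 CPM in KO (log2 fold change 0.20, SE 0.0733). ZNF33A measured 34.7 and 30.7 CPM in WT, but 34.7 and 42.1 CPM in KO (log2 fold change 0.25, SE 0.0825). It was the 1 member at which the groups overlapped, since KO replicate 1 was level with WT replicate 1. Its log2 fold change fell to 0.089 once KO replicate 2 was omitted.

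**Figure D1:**
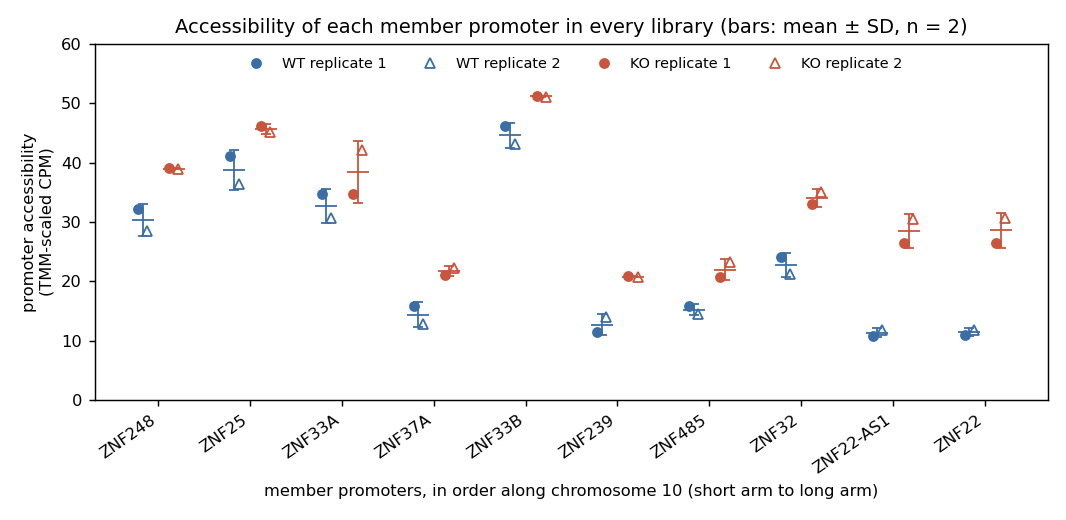
TMM-scaled CPM (vertical axis, from 0) of each member promoter (horizontal axis, in order along chromosome 10) in the 2 WT libraries (blue) and the 2 KO libraries (red); filled circles are replicate 1, open triangles replicate 2, and bars give mean ± SD. The groups are farthest apart at ZNF22 and its antisense row, and they overlap at ZNF33A, where KO replicate 1 and WT replicate 1 both stand at 34.7 CPM.

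Of the 10 members, 7 had an adjusted p under 0.05 in edgeR's quasi-likelihood test across all promoters, all of them higher in KO, where 3.45% of all tested promoters were called higher. Counting ZNF22 and ZNF22-AS1 once, it was 6 of 9. ZNF248 was the smallest of those past the threshold, and ZNF25, ZNF33A and ZNF33B were short of it. The lower KO library exceeded the higher WT library at 9 of the 10 members, and at 25.2% of all tested promoters. As the members were selected on this contrast, nothing is read from these counts. The median log2 fold change of the members was 0.57, beside -0.017 for all tested promoters and 0.053 for the 590 other zinc finger (ZNF) promoters. Without KO replicate 2 the number past the threshold was 4, and these were ZNF22, ZNF22-AS1, ZNF239 and ZNF32. DESeq2 kept only ZNF22 and ZNF22-AS1 past it, where it called 7 of all 27647 tested promoters. By DESeq2, 8 members had an unadjusted p under 0.05, beside 1426 of all 27647 tested promoters.

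By role, the 3 members that encode zinc finger proteins without KRAB had log2 fold changes of 0.59 to 1.35, with a median of 0.71. The 6 KRAB members ranged from 0.20 to 0.60, with a median of 0.31, and ZNF37A and ZNF485 reached the level of ZNF32. By position, the 4 short-arm members had a median log2 fold change of 0.31, and the 6 long-arm members, ZNF22-AS1 included, one of 0.65. Small and large values occurred on both arms, as with ZNF25 beside ZNF37A on the short arm and ZNF33B against ZNF22 on the long arm. ZNF22, ZNF32 and ZNF239, the members without KRAB, were all chosen for their rise, as was ZNF485 on the long arm. ZNF248, ZNF25, ZNF33A and ZNF33B, all with KRAB, were added by position. The selection therefore enters both groupings, and neither was tested.

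Levels in WT cells spanned 3.92-fold among the 9 genes other than ZNF22-AS1. ZNF33B was the highest, at 44.6 ± 2.14 CPM (SD, n = 2), and it was followed by ZNF25 (38.7 ± 3.39 CPM), ZNF33A (32.7 ± 2.83 CPM) and ZNF248 (30.3 ± 2.64 CPM). ZNF32 came next at 22.7 ± 2.00 CPM. The lowest were ZNF485 (15.2 ± 0.976 CPM), ZNF37A (14.4 ± 2.15 CPM), ZNF239 (12.7 ± 1.79 CPM) and ZNF22. The WT values of ZNF33A and ZNF248 overlapped, as did those of neighbours in the order from ZNF485 down to ZNF22, so that these ranks are not separated beyond the spread. Among all tested promoters the WT level of ZNF22 was at the 44.4th percentile and that of ZNF33B at the 80.1st. Among ZNF promoters they were at the 28.2nd and the 83.5th.

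The order of change was nearly the reverse of the order of WT level. Across the 9 genes, Spearman's rho between WT level and log2 fold change was -0.98. In KO cells the levels spanned only 2.46-fold, from 20.8 CPM at ZNF239 to 51.2 CPM at ZNF33B. The WT level enters both quantities, and the genes share the same 4 libraries. With the level taken from 1 WT library and the change computed against the other, rho was -0.85 with the level from WT replicate 1 and -0.83 with the level from WT replicate 2. Among the 590 other ZNF promoters the relation had the opposite sign (rho 0.29). Unlike the 9 genes, these rows include antisense and pseudogene rows, some of them with few fragments. The members' own abundance classes, made by cutting all tested promoters into classes of equal number, had median log2 fold changes from -0.033 to 0.074. Taking the level from 1 WT library does not undo the selection of members on their change. The relation among the members, and its difference from the other ZNF promoters, is therefore a description and was not tested.

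**Figure D2:**
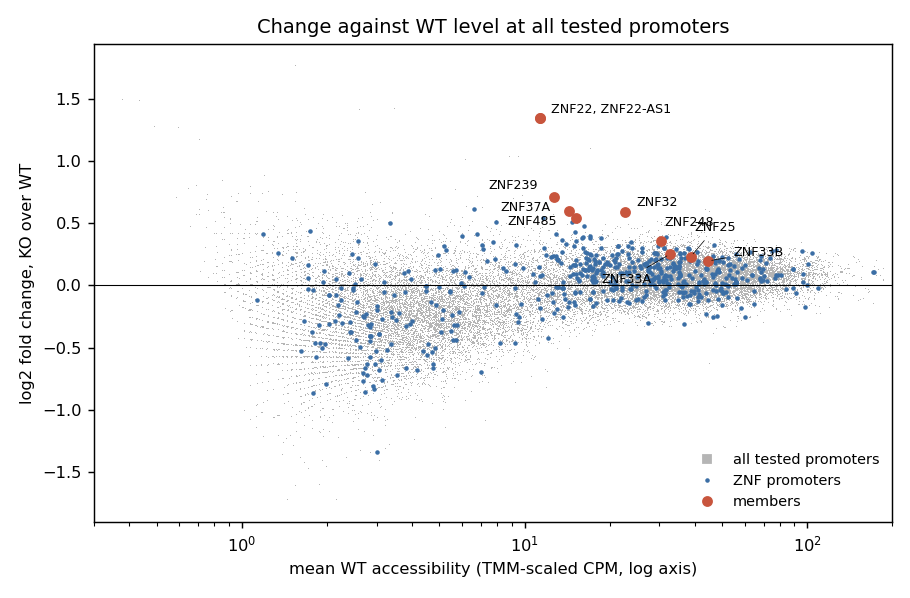
Log2 fold change of KO over WT (vertical axis) against mean WT accessibility in TMM-scaled CPM (horizontal log axis) for all tested promoters (grey), ZNF promoters (blue) and the members (red); 38 promoters above the plotted range are not drawn. The members run from ZNF22, at 11.4 CPM and 1.35, down to ZNF33B, at 44.6 CPM and 0.20. They were selected for their change, and the WT level enters both axes.

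The promoters around the members were not selected by their change. Within 10 tested promoters on either side of any member there were 56 others, ZNF37BP aside, of which 3 rose in KO and 0 fell by edgeR (adjusted p under 0.05), that is 3 of 56 where 4.45% of all tested promoters were called. At an unadjusted p under 0.05 there were 14, against 5626 of all 27647 tested promoters, and the median log2 fold change of the 56 was 0.059. LINC00839, a noncoding gene on the long-arm side beside ZNF37BP, rose from 29.9 and 30.9 CPM in WT to 41.3 and 44.4 CPM in KO. Its log2 fold change was 0.50 (SE 0.0820, edgeR adjusted p 1.56e-06), without overlap of the groups, and it was called in 9 of 11 alternative fits. The exceptions were total count scaling (adjusted p 0.0930) and DESeq2 (adjusted p 0.112). RET, the receptor tyrosine kinase gene, rose by 0.28 (SE 0.0877, edgeR adjusted p 0.0352). MARCHF8, which encodes a membrane-bound ubiquitin ligase, rose by 0.24 (SE 0.0752, edgeR adjusted p 0.0352). These 2 calls rested on small differences and were each kept in 4 of 11 alternative fits. They were lost without KO replicate 1, KO replicate 2 or WT replicate 2 (adjusted p from 0.108 to 0.289).

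Of the promoters next to the members, ZNF37BP alone, described with the other zinc finger promoters, was called. Beside ZNF22, DEPP1 stood at 0.29 on the log2 scale (SE 0.100, edgeR adjusted p 0.0670), RASSF4 at 0.14 (adjusted p 0.309) and RSU1P2, on the other side, at 0.26 (adjusted p 0.616). RSU1P2 and ANKRD30BP3 had the same count in every library, so they are a single observation. Counts were also nearly the same at TMEM72-AS1 and RASSF4, and at LOC283028 and LOC105378269. Both rows of the last pair were among the neighbours with an unadjusted edgeR p under 0.05. The neighbours therefore hold fewer separate observations than rows. On the side of the centromere, ZNF487, the zinc finger gene next to ZNF239 that is not a member, stood at 0.13 (SE 0.0739, adjusted p 0.304). The antisense rows at ZNF32 held only 22 to 72 fragments per library. ZNF32-AS1 was at -0.32 (adjusted p 0.546), ZNF32-AS2 at 0.50 (adjusted p 0.202) and ZNF32-AS3 at 0.36 (adjusted p 0.461), with standard errors of 0.235 to 0.287, so that a change of the size seen at ZNF32 was not detectable there. ANKRD30A, the promoter before ZNF248, and CCNYL4, the one after ZNF37A, were at -0.23 and -0.04 with 8 to 28 fragments per library. LINC01518, after ZNF33B, was at 0.06. As a description of members selected for a higher KO level, their distance from the median of the 20 nearest promoters that were not members is given next. ZNF22 exceeded the median of its 20 neighbours by 1.30, ZNF239 by 0.86, ZNF485 and ZNF32 by 0.69 each and ZNF37A by 0.52 on the log2 scale. ZNF33B exceeded it by 0.054.

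**Figure D3:**
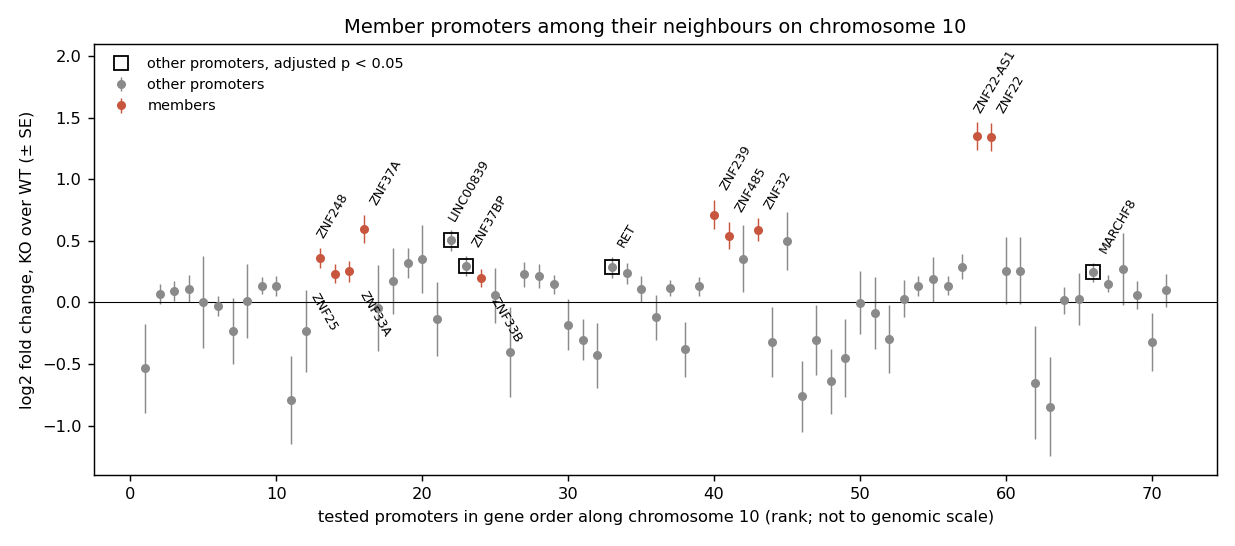
Log2 fold change of KO over WT with its SE (vertical axis) for tested promoters in gene order along chromosome 10 (horizontal axis, rank and not distance), members in red, other promoters in grey and other promoters with an adjusted p under 0.05 in squares. ZNF22, ZNF239, ZNF37A, ZNF32 and ZNF485, selected for their change, stand above every promoter drawn that is not a member. Of those others, LINC00839, at 0.50, is the highest.

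Other zinc finger promoters of the chromosome were compared in the same fit. Of 14 such rows, antisense and pseudogene rows included, 1 rose in KO and 0 fell, with 3 at an unadjusted p under 0.05, and their median log2 fold change was 0.049. Among all tested promoters 4.45% were called, and 5626 of 27647 had an unadjusted p under 0.05. The riser was ZNF37BP, a pseudogene related to ZNF37A that lies next to ZNF33B. It measured 35.8 and 33.0 CPM in WT and 41.3 and 43.0 CPM in KO, that is a difference of 0.29 on the log2 scale (SE 0.0799, edgeR adjusted p 0.0139). It was not called without KO replicate 2 (adjusted p 0.298) or WT replicate 2 (adjusted p 0.205), with offsets on abundance (0.126), with total count scaling (0.443) or by DESeq2 (0.779). ZNF438, farther out on the short arm, was at -0.05 (adjusted p 0.762). Reads that fit ZNF33A and ZNF33B, or ZNF37A and ZNF37BP, equally well fall below the mapping quality of 30 that the authors required. Such reads are missing from the counts, and how many there were was not measured.

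The promoters most like ZNF22 over the 4 libraries were searched among 19823 others with a mean count of at least 50, by the distance between centred log2 CPM values. LINC00858 was nearest, at a distance of 0.317, and was followed by LINC02994 (0.332), MIR3171HG (0.402), MIR4713HG (0.436) and MIR4647 (0.547). All 5 belong to noncoding genes. LINC00858 measured 8.93 and 10.1 CPM in WT and 18.6 and 19.9 CPM in KO, and LINC02994 measured 8.72 and 8.86 CPM in WT and 17.8 and 18.1 CPM in KO. MIR4647 was uneven, with 25.6 CPM in KO replicate 1 and 44.4 CPM in KO replicate 2. Among the members other than ZNF22-AS1, ZNF239 was the closest to ZNF22 (0.634) and ZNF33B the farthest (1.14). As likeness to ZNF22 selects for a difference between the groups, these promoters were not tested.

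Of 12 promoters of the machinery through which KRAB zinc finger proteins and HUSH silence chromatin, 3 rose in KO and 0 fell, with 5 at an unadjusted p under 0.05. Of all tested promoters 3.45% were called higher, and 5626 of 27647 had an unadjusted p under 0.05. The list held TRIM28, SETDB1, ATF7IP, CBX1, CBX3, CBX5, CHD4, HDAC1, MORC2, TASOR, MPHOSPH8 and PPHLN1. TASOR, the scaffold of HUSH, rose by 0.44 (SE 0.0838, edgeR adjusted p 0.000124), MORC2 by 0.43 (adjusted p 0.000279) and PPHLN1, another HUSH subunit, by 0.26 (adjusted p 0.0394). TRIM28, the KRAB co-repressor, was at -0.026 (adjusted p 0.872) and SETDB1 at -0.0063 (adjusted p 0.972). None of the 3 was called with total count scaling (adjusted p 0.211 to 0.457) or by DESeq2 (adjusted p 0.278 to 0.959, 3 of the 12 at an unadjusted p under 0.05). MORC2 was not called without KO replicate 2 (adjusted p 0.0837), and PPHLN1 was called in only 5 of 11 alternative fits. It was also lost without KO replicate 2 (adjusted p 0.542), without WT replicate 2 (0.421), with offsets on abundance (0.235) and with the replicate number as a block (0.0714).

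RefSeq promoter windows, from 250 bases before to 50 after a start on GRCh38.p14, were found for all 10 members. The count table rests on another assembly, so that these windows stand for the reference promoter and not for the counted interval. The 250 bases before the first listed start are shown for the 5 members on whose change the set was chosen, because they let the promoters of the largest differences be compared by eye. Capitals mark matches, on either strand, to CCAAT (the CCAAT box), GGGCGG (SP1), CCGGAAG (ETS factors) or GCATGCGC (the core of the NRF1 site).
ZNF22 (chr10:45000673-45000922, plus strand): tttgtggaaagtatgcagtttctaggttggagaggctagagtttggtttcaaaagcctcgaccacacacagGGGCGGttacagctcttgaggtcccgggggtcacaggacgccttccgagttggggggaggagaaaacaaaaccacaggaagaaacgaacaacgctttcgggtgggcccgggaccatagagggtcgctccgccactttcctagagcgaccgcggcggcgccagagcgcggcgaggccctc
ZNF239 (chr10:43574617-43574866, minus strand): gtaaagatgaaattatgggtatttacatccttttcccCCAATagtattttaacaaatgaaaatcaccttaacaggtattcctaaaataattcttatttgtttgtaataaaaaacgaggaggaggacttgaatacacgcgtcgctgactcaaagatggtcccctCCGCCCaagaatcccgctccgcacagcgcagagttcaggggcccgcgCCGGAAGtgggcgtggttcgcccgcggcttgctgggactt
ZNF32 (chr10:43648882-43649131, minus strand): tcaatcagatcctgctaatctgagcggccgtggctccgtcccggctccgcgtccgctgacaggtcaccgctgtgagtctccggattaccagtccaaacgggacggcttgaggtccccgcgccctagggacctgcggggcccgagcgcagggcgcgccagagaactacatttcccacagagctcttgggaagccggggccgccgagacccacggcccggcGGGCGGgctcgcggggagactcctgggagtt
ZNF485 (chr10:43606188-43606437, plus strand): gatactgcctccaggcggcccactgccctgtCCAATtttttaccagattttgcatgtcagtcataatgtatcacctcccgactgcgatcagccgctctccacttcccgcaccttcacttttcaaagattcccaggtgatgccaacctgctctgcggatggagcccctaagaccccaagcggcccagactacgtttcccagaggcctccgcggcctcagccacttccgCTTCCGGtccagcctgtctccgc
ZNF37A (chr10:38094087-38094336, plus strand): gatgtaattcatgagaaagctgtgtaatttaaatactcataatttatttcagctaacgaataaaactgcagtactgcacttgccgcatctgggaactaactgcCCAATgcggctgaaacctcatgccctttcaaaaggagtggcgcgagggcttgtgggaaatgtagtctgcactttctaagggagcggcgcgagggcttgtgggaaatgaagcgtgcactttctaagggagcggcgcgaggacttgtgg

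The pair ZNF33A and ZNF33B, whose differences were among the smallest, is shown because the genes are paralogues. Over the whole window the alignment had 251 identical bases in 321 columns (78.2%). Both carry the CCAAT box and, as the members' only cases, the NRF1 core.
ZNF33A (chr10:38010425-38010674, plus strand): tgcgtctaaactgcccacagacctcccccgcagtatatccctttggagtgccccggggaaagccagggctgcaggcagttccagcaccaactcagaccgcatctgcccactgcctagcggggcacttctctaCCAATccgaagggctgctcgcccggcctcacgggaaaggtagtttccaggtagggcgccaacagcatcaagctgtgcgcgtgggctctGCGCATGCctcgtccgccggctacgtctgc
ZNF33B (chr10:42638571-42638820, minus strand): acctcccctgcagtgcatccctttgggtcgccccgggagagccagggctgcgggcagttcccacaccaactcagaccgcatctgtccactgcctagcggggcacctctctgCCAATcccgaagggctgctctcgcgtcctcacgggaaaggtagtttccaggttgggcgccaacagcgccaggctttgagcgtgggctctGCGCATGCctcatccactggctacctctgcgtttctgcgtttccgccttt

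In the windows of 300 bases, CCAAT occurred in 8 of the 10 members and in 34.6% of all 35116 promoter windows, and it was absent from those of ZNF22 and ZNF32. ZNF22-AS1 was 1 of the 8, with its match outside the stretch that its window shares with that of ZNF22. GGGCGG occurred in ZNF239, ZNF32 and ZNF22, that is in the 3 members without KRAB, and in 45.0% of all windows. CCGGAAG occurred in ZNF239, ZNF485, ZNF22 and ZNF22-AS1, the latter 2 sharing the sequence, and in 10.3% of all windows. GCATGCGC occurred in ZNF33A and ZNF33B and in 3.05% of all windows. AAGATGGC (YY1) and CTCGCGAG (the core of the ZBTB33 site) occurred in 0 members and in 2.89% and 1.02% of all windows. The matched letters of these motifs overlap in none of the sequences printed, and a match describes letters and not a bound site. The windows of all 10 members had a CpG ratio (observed over expected) above the median of all windows, with a median of 0.837 against 0.579. Their GC content had a median of 60.8%, against 58.7% for all windows, and ranged from 50.7% at ZNF239 to 70.7% at ZNF32.

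**Figure D4:**
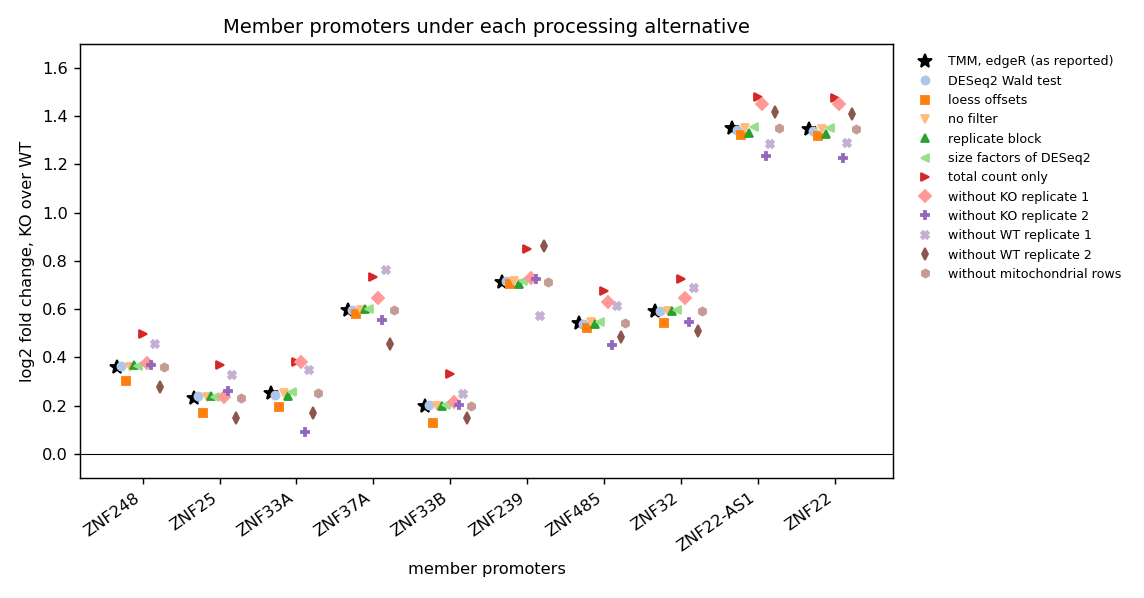
Log2 fold change of KO over WT (vertical axis) of each member (horizontal axis) as reported (black star) and under 11 alternatives of scaling, filter, test and omitted library (coloured marks). Each member stays above 0 under all of them, and ZNF22 keeps between 1.23 and 1.48 and ZNF33A between 0.089 and 0.38. The members were selected on this contrast in the same libraries, so the kept direction is a description.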

How the data were processed

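ATAC-seq was performed on 2 WT and 2 MORC2 KO libraries of HEK293T cells. The authors trimmed reads with Trim Galore, aligned them to T2T-CHM13 with bowtie2, kept properly paired reads with a mapping quality of at least 30 and used Picard to remove duplicates. Raw counts, 1 row per NCBI Gene ID, make up the deposited table of promoters, and the step that made this table is not itself described. For the study's own test, the authors counted fragments by their midpoint in genome-wide windows with csaw and summarised them over promoters of 2 kb around each start. By that test the study reported far fewer differentially accessible genes between KO and WT than the promoters called here. Total counts ranged from 9435801 to 15152636 per library. With 2 libraries per group, SDs are themselves imprecise. Symbols and gene order came from a RefSeq table on GRCh38.p14, which matched 28763 of 28775 IDs. The WT peak list was not used here, since its positions are on T2T-CHM13 and could not be tied to the members.

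Promoters were filtered with filterByExpr (27647 kept), scaled by TMM and compared across all 4 libraries with edgeR 4.0.16 (quasi-likelihood F-test, legacy fit, two-sided, no covariates, R 4.3.3), and p-values were adjusted by Benjamini-Hochberg over all tested promoters, with a threshold of 0.05. An exact permutation test of 2 against 2 libraries cannot go below a two-sided p of 0.333, so single values were not tested. The study describes the WT libraries as independent replicates and the KO libraries as independent lines. Neighbours were the 10 tested promoters on each side of a member; rows within 25% of an adjacent member's count in every library were left out of them, which removed ZNF37BP. The members and lists were chosen with earlier results of these data known. Named promoters were the members, called and adjacent neighbours, called promoters of the other lists, MORC2 and the 5 most like ZNF22. A further exception, chosen after its values were seen, is the mention of RASSF4, TMEM72-AS1, LOC283028, LOC105378269, ZNF438, TRIM28 and SETDB1. Promoter features were computed with Python 3.11.15 and Biopython 1.88. In data simulated for this comparison over 27520 promoters, 83% of 200 promoters changed by 0.6 on the log2 scale were recovered. The 200 were drawn from promoters with a mean count of at least 50, and 1 common spread was used for all promoters. The share therefore does not hold for promoters with fewer fragments or a wider spread. Replicate libraries differed by more than sampling noise (chi-square per degree of freedom 1.26 in KO and 1.40 in WT over 19796 promoters). A further HEK293T marker is not reported here.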

Additional observations from a re-analysis of the deposited data

How the results depend on the processing

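The median log2 fold change of the members stayed within the spread in all 11 alternatives, from 0.47 to 0.70. Each member kept its direction, which is a description of members selected on this contrast in the same libraries. Only with total count scaling did single members move beyond their spread (ZNF248, ZNF25 and ZNF33B, at 0.50, 0.37 and 0.33). There the median of all promoters is itself 0.12 in place of -0.017. The spread was computed from the same libraries. Leaving out 1 of 2 libraries shifts a group mean by less than that spread, so those fits could hardly exceed it and do not test stability. Members past the threshold numbered 2 with DESeq2 and 4 to 9 when each library was left out, the lowest without KO replicate 2. The WT level of every member was higher by more than its spread when scaled by nuclear counts, with the same order.

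All called promoters numbered 1229 (954 higher), 7 with DESeq2 (7 higher), 388 with offsets on abundance (216 higher), 20 with total count scaling (19 higher) and 41 to 1637 when each library was left out, the lowest without KO replicate 2, followed by 230 without WT replicate 2. Called neighbours, 3, were 0 with DESeq2 (3 at an unadjusted p under 0.05) and with total count scaling (10), 1 with offsets, 1 when 5 promoters on either side were taken, and 1 to 5 when each library was left out. Called cofactors, 3, were 0 with DESeq2 (3 at an unadjusted p under 0.05) and with total count scaling (5), 2 with offsets and with the replicate block, and 1 to 4 when each library was left out. The other chromosome 10 ZNF promoters, 1, were 0 with DESeq2 (1 at an unadjusted p under 0.05), total count scaling (3) and offsets (3), and 0 to 1 when each library was left out. The cause was not tested.

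In a fit with a replicate block, 765 promoters and 1 neighbour were called, and 7 members were past the threshold as before. Deviations of same-numbered libraries correlated at 0.021, which gives no pairing by number. Protein features of the members were not run. Depth limits rows of few fragments, such as the antisense rows at ZNF32, and leaving 1 library in a group assumes that it varies like the others.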
